A study of Mus musculus with 8 samples.

Results

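Microglia, the resident macrophages of the brain, were followed through 36 genes of their identity and activation in polyadenylated RNA from brains of C57BL/6 mice. The genes were the rows of the deposited read count table whose gene name was on a list of microglia genes, and all 36 were found among the 17613 genes of the table. All 36 also passed the filter on low counts, which left 15902 genes to test. There were 8 libraries, 4 labelled Uhrf2 knockout (KO) and 4 labelled wild type (WT). UHRF2 is a chromatin protein that recognises modified cytosines, and the study concerned its part in local 5-methylcytosine and in seizures. The labels state neither the age and sex of the mice, nor the design of the knockout allele, nor whether each library came from its own animal, so p-values measure the spread between these libraries only.

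Microglia live in the brain parenchyma and depend on the receptor for colony-stimulating factor 1. In the undisturbed brain they carry a homeostatic set of surface receptors, such as the fractalkine receptor CX3CR1 and the ADP receptor P2RY12, and supply the C1q chains of the complement system. Many of their activating receptors signal through adaptors with an immunoreceptor tyrosine-based activation motif (ITAM), which recruit the kinase SYK. SYK in turn phosphorylates the adaptor BLNK, which in B cells links SYK to BTK and to phospholipase C gamma. BLNK is best known from B cells and is also present in microglia and other macrophages.

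Libraries held between 11891350 and 19773921 counts, so that 3 counts corresponded to 0.15 to 0.252 CPM (counts per 1e6 of the normalised library size). Uhrf2 itself, which checks the labels, stood at 86.4, 88.6, 88.4 and 91.8 CPM in the libraries labelled KO and at 58.03, 47.7, 57.2 and 58.9 CPM in those labelled WT (log2 fold change 0.68, SE 0.06, adjusted p = 5.45e-06, edgeR). This is against the direction of a knockout label. Counts per gene do not separate the deleted part from the rest, so the groups are called by their labels throughout and every direction rests on those labels. Marker lists of neurons, astrocytes and oligodendrocytes (6 genes each) summed to between 2600 and 6294 CPM in every library. Of these genes 0 passed (edgeR), with 3 of the neuron, 3 of the astrocyte and 1 of the oligodendrocyte genes at an unadjusted p under 0.05. Of all tested genes 12.6% lay under it, so these markers cannot be taken as level between the groups.

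Of the 36 genes, 1 changed, and that was Blnk, which rose in the libraries labelled KO. The other 35 did not pass an adjusted p of 0.05 (quasi-likelihood test of edgeR, Benjamini-Hochberg adjustment over all tested genes). Among all tested genes 228 passed, which is 1.43%, 1.14% being higher under the KO label and 0.289% lower. At an unadjusted p under 0.05 stood 5 of the 36 genes (13.9%), against 12.6% of all tested genes, so the share among the microglia genes lay near that of the transcriptome. Apart from Blnk, no gene of the list was more than 1.33-fold higher or 1.199-fold lower. Their median log2 fold change was -0.0001, and it was -0.0049 over all tested genes. Of these 35 genes 17 lay above 0 and 18 below. Without regard to sign, their median log2 fold change was 0.104, against 0.071 over all tested genes. The 2 sets were not matched for expression level. In brain tissue as a whole, fewer microglia and less RNA per microglial cell cannot be told apart.

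**Figure D1:**
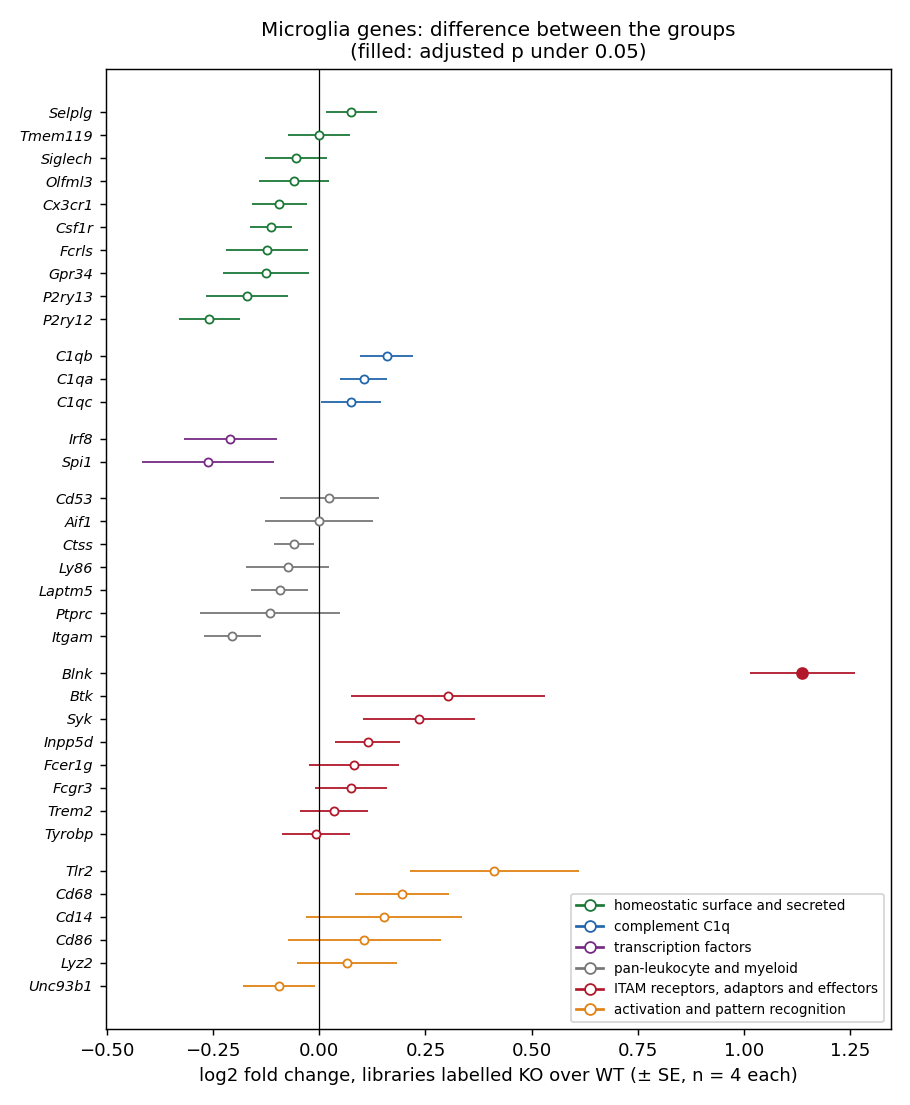
Log2 fold change of each of the 36 microglia genes, libraries labelled KO over libraries labelled WT, with its standard error (n = 4 each), grouped by role. Blnk, the filled point at 1.14, is the gene past the adjusted threshold, and the other 35 lie between -0.26 and 0.41.

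Promoter windows were available for 26 of the 36 genes from RefSeq on GRCm38.p6. The genes with no window were C1qa, Cd14, Cd86, Csf1r, Gpr34, Selplg, Spi1, Tmem119, Tyrobp and Unc93b1. Each window was read for the 250 bases before the start, on both strands, for the letters GAGGAAGT, a motif of the myeloid factor PU.1 (encoded by Spi1), and for GGAA followed after any 2 bases by GAAA, a composite of ETS and IRF letters. The first was present in the windows of 2 of 26 microglia genes (7.69%), C1qc and Inpp5d, and in those of 2.79% of all genes with a window. The second was in 0 of 26 and in 2.68% of all genes. These matches are letters in a window and not sites of binding. The window of Blnk is shown as that of the gene that changed, at chr19:40994222-40994471 on the minus strand, in which neither run of letters occurred. It lies before the RefSeq start. The GENCODE gene starts further out on this strand, at 40994535, so the whole Blnk window lies inside that gene. The starts of the annotations thus differ, as they do for C1qc, whose window lies in part inside its GENCODE gene. Beside the Blnk window stand those of C1qc, at chr4:136892915-136893164 on the minus strand, and Inpp5d, at chr1:87620062-87620311 on the plus strand, as the genes with a match. All are written 5′ to 3′ on the strand of the gene, and capitals mark the PU.1 letters, which in C1qc read on the opposite strand.
Blnk: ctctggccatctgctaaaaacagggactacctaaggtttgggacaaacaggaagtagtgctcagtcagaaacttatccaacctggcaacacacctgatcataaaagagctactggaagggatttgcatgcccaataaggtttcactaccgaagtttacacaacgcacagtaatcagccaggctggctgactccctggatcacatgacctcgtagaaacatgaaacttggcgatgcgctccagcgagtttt
C1qc: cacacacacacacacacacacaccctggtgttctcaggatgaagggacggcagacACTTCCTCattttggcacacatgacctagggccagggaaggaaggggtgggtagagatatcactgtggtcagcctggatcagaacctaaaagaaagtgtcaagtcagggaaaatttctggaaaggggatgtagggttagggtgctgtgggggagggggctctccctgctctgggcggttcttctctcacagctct
Inpp5d: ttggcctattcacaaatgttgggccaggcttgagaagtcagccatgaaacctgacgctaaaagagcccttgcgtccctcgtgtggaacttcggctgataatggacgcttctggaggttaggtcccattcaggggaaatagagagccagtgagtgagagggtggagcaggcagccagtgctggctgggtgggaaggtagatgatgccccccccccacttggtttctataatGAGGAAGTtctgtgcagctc

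The matches lay 195 to 188 bases before the start of C1qc and 20 to 13 bases before the start of Inpp5d. The genes of these 3 windows differed in response, with log2 fold changes of 1.14 (SE 0.12) for Blnk, 0.07 (SE 0.07) for C1qc and 0.11 (SE 0.08) for Inpp5d.

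Blnk stood at 9.99, 11.2, 11.2 and 10.02 CPM in the libraries labelled KO (replicates 1 to 4), against 4.12, 6.19, 4.70 and 4.14 CPM in the libraries labelled WT. Every library labelled KO lay above every library labelled WT, and the gap between the lowest of the first and the highest of the second was wider than the range within either group. These levels rest on 134, 176, 211 and 150 counts in the libraries labelled KO and on 49, 101, 94 and 64 counts in those labelled WT. In log2 terms Blnk rose by 1.14 (SE 0.12), a fold of 2.20, with an adjusted p of 3.41e-05 (edgeR), and it had the rank 13 by p among the 15902 tested genes. The exact permutation test gave a two-sided p of 0.0286, which is the smallest that the 70 arrangements of the labels allow. Any gene whose groups do not overlap gets this value, so it adds nothing to the separation stated above. Leaving out any 1 library gave a log2 fold change between 1.07 and 1.29 and an adjusted p of at most 0.000371 (edgeR). Set against the summed CPM of the other 35 genes, Blnk came to between 1.42% and 1.63% in the libraries labelled KO and between 0.592% and 0.834% in those labelled WT.

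**Figure D2:**
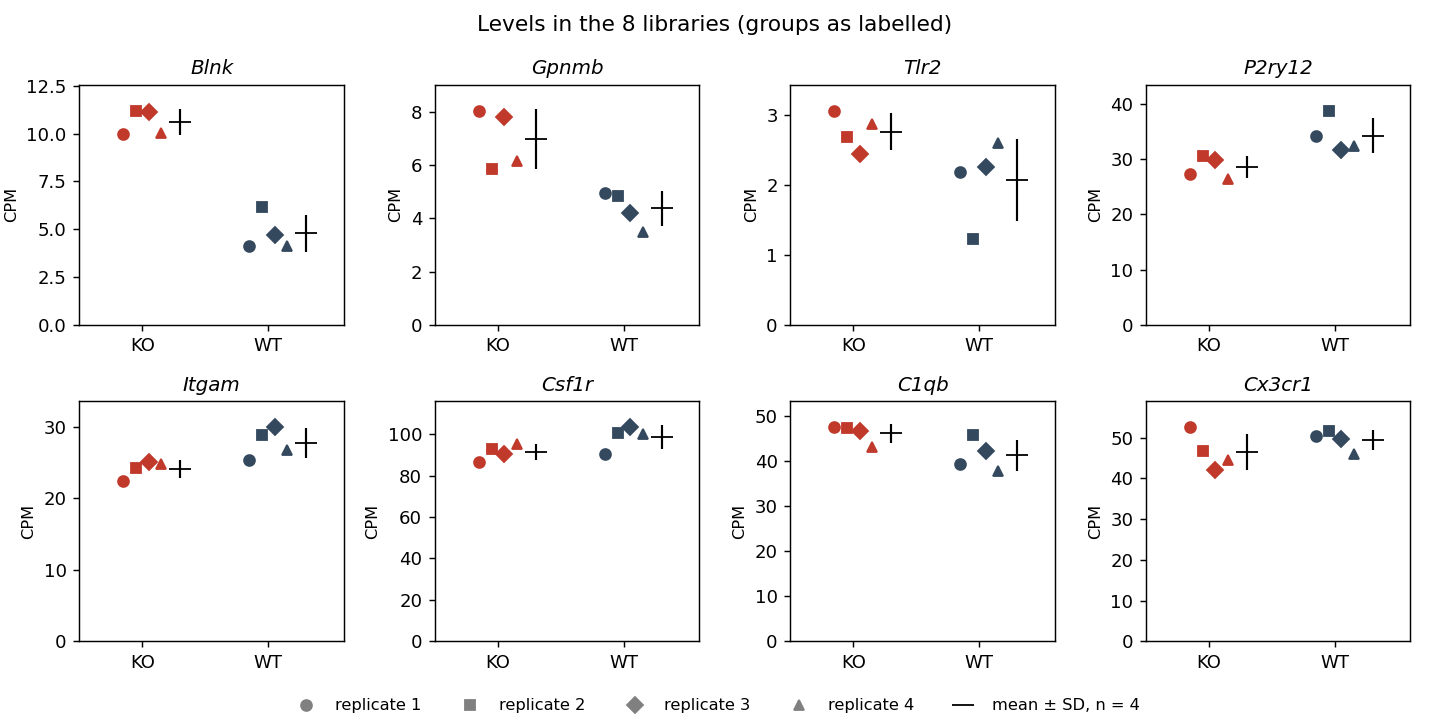
CPM of 8 genes in each library, with the mean and SD of 4 libraries at the side of each group and the axis starting at 0. Blnk and Gpnmb lie higher in all 4 libraries labelled KO than in any labelled WT, P2ry12 and Itgam lie lower, and the groups overlap for Tlr2, Csf1r, C1qb and Cx3cr1.

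Blnk (ENSMUSG00000061132) lies on chromosome 19 of GRCm38 from 40928927 to 40994535 on the minus strand, 10.84 Mb from Uhrf2 on the same chromosome. No other annotated gene of the table overlaps it. Within 1 Mb on either side 23 other genes were tested, and 0 of them passed the adjusted threshold by edgeR. The nearest neighbours before it were Zfp518a, with 17.5 ± 1.78 CPM in the libraries labelled KO and 18.03 ± 2.602 CPM in those labelled WT, and Ccnj, with 10.6 ± 0.756 CPM in the libraries labelled KO and 10.7 ± 1.06 CPM in those labelled WT (SD, n = 4 each). After it came Opalin, an oligodendrocyte gene, with 16.7 ± 2.39 CPM in the libraries labelled KO and 19.7 ± 4.64 CPM in those labelled WT, and Tm9sf3, with 233 ± 14.5 CPM in the libraries labelled KO and 238 ± 18.7 CPM in those labelled WT. Of the 23 genes, Rrp12 had the lowest p, at a log2 fold change of 0.23 (SE 0.06, adjusted p = 0.0839, edgeR). The log2 fold changes of the 23 ran from -0.27 for Pik3ap1 to 0.36 for Ubtd1. Of the 58 genes tested between Uhrf2 and Blnk, 0 passed in either direction by edgeR. Among all tested genes 1.43% passed, so a count of 0 in sets this small says little about the region.

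**Figure D3:**
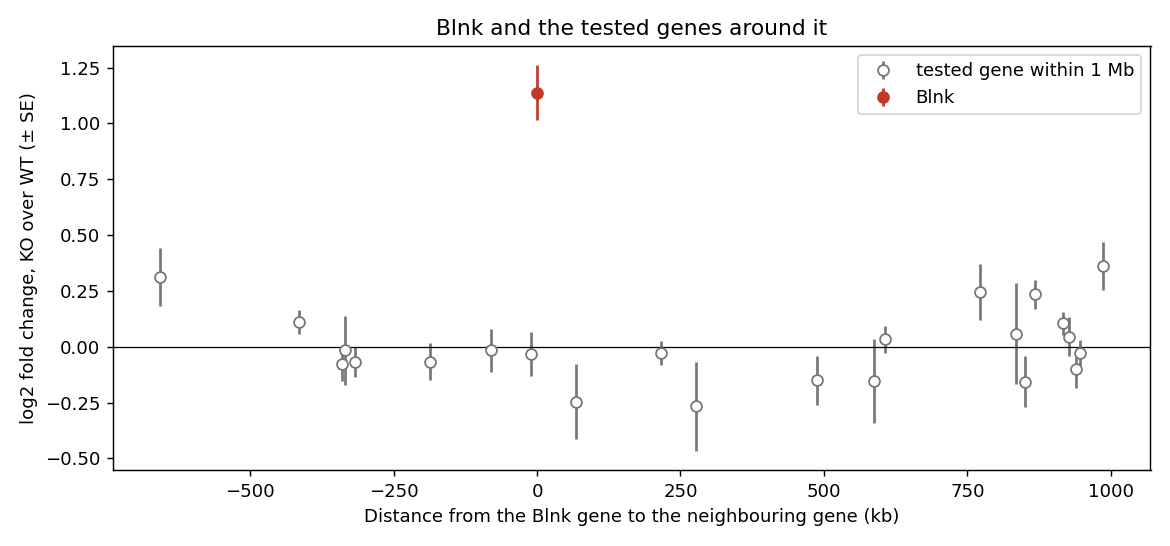
Log2 fold change (± SE, n = 4 each) of Blnk and of the 23 tested genes within 1 Mb of it, against the distance to each in kb. Blnk lies at 1.14, and its neighbours lie between -0.27 and 0.36, none past the adjusted threshold.

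The receptors, adaptors and enzymes around BLNK had log2 fold changes above 0 in 6 of 7 cases, and none of the 7 passed. Their median was 0.083. Syk, the kinase that binds the phosphorylated ITAM, was measured at 4.47, 4.97, 5.07 and 5.41 CPM in the libraries labelled KO and at 4.29, 4.53, 4.65 and 3.43 CPM in those labelled WT. The groups overlapped, at a log2 fold change of 0.23 (SE 0.13, adjusted p = 0.488, edgeR). Btk, a kinase downstream of BLNK, was near the lower end of the list, at 1.37 ± 0.181 CPM in the libraries labelled KO and 1.119 ± 0.235 CPM in those labelled WT (SD, n = 4 each), with 12 to 30 counts a library. Inpp5d, a lipid phosphatase that restrains this signalling, averaged 15.9 ± 1.119 CPM in the libraries labelled KO and 14.7 ± 0.313 CPM in those labelled WT, with an adjusted p of 0.577 (edgeR).

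Trem2, a lipid-sensing receptor, and Tyrobp, its ITAM adaptor, were nearly level between the groups. Trem2 was measured at 14.6, 15.4, 15.9 and 14.02 CPM in the libraries labelled KO, against 14.04, 16.2, 14.6 and 13.6 CPM in those labelled WT. Tyrobp averaged 12.6 ± 0.59 CPM in the libraries labelled KO and 12.7 ± 0.69 CPM in those labelled WT (SD, n = 4 each). The groups overlapped for both genes, at log2 fold changes of 0.04 (SE 0.08) for Trem2 and -0.0073 (SE 0.08) for Tyrobp. The other ITAM adaptor, Fcer1g, had a log2 fold change of 0.08 (SE 0.11), and the Fc receptor Fcgr3, which shares long stretches with its neighbour Fcgr2b, a log2 fold change of 0.07 (SE 0.09).

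Other genes of the same signalling route, from a list of 22 partners of which 21 were tested, held 0 that passed in either direction (edgeR), with 3 at an unadjusted p under 0.05. Their median log2 fold change was 0.02. The 3 were Grb2, an adaptor between receptors and RAS, Malt1, a protease of NF-kappaB signalling, and Dok1, an adaptor that restrains tyrosine kinase signalling. Grb2 averaged 171 ± 5.22 CPM in the libraries labelled KO and 156 ± 9.33 CPM in those labelled WT (SD, n = 4 each), with a log2 fold change of 0.14 (SE 0.05, adjusted p = 0.186, edgeR). Malt1 averaged 11.4 ± 1.248 CPM in the libraries labelled KO and 13.6 ± 1.202 CPM in those labelled WT, with a log2 fold change of -0.26 (SE 0.09, adjusted p = 0.235, edgeR). Dok1 averaged 1.98 ± 0.38 CPM in the libraries labelled KO and 1.295 ± 0.486 CPM in those labelled WT, with a log2 fold change of 0.59 (SE 0.24, adjusted p = 0.299, edgeR). The groups overlapped for all 3. Lyn, a SRC-family kinase that acts before SYK, averaged 10.4 ± 0.19 CPM in the libraries labelled KO and 10.3 ± 0.31 CPM in those labelled WT (SD, n = 4 each). Plcg2, the phospholipase that BLNK brings to BTK in B cells, averaged 5.95 ± 0.50 CPM in the libraries labelled KO and 5.43 ± 0.84 CPM in those labelled WT. Pik3ap1, another adaptor of this route and a neighbour of Blnk on chromosome 19, averaged 2.21 ± 0.51 CPM in the libraries labelled KO and 2.64 ± 0.48 CPM in those labelled WT.

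B cell markers were read beside Blnk, since the gene is best known from B cells. Of 12 listed markers 3 were in the table, namely Ebf1, Bank1 and Jchain, and the rest were not analysed here. None of the 3 was at 0 in all libraries. Their summed level ran from 18.4 to 24.2 CPM in the libraries labelled KO and from 23.6 to 25.97 CPM in those labelled WT, most of it from Ebf1, which other brain cells also express. Bank1 averaged 1.61 ± 0.51 CPM in the libraries labelled KO and 1.31 ± 0.34 CPM in those labelled WT, and Jchain 0.581 ± 0.284 CPM in the libraries labelled KO and 0.885 ± 0.251 CPM in those labelled WT (SD, n = 4 each). Markers of T and NK cells (4 of 10 in the table) summed to between 12.1 and 13.2 CPM in the libraries labelled KO and between 10.5 and 12.2 CPM in those labelled WT. Most of it came from Cd4, at 8.78 ± 0.353 CPM labelled KO and 7.54 ± 0.290 CPM labelled WT. For Cd4 the groups did not overlap (adjusted p = 0.324, edgeR). Of the 3 T and NK cell markers tested, Cd4 was the 1 with a log2 fold change above 0. The other 2 lay below it, at -0.11 (SE 0.23) for Lck and -0.04 (SE 0.18) for Zap70. The part of the B, T and NK cell markers in the Blnk result was not tested.

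The 10 homeostatic surface and secreted genes had log2 fold changes below 0 in 8 cases and above 0 in 2, with a median of -0.10, and 0 passed (edgeR). Below 0 stood 52% of all tested genes. P2ry12, the ADP receptor that steers microglial processes, was measured at 27.4, 30.6, 29.9 and 26.4 CPM in the libraries labelled KO, against 34.1, 38.8, 31.7 and 32.4 CPM in those labelled WT. All 4 libraries labelled KO lay below all 4 labelled WT. This gave a log2 fold change of -0.26 (SE 0.07, adjusted p = 0.0903, edgeR), 1.196-fold lower, which did not pass. That call depended on whether the replicate number entered the model, as described at the end. Its neighbour P2ry13, a related nucleotide receptor, averaged 10.5 ± 1.22 CPM in the libraries labelled KO and 11.9 ± 0.77 CPM in those labelled WT (SD, n = 4 each), and the groups overlapped.

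Both receptors lie inside Med12l, which runs on the opposite strand of chromosome 3 from 59005825 to 59318682. P2ry12 spans 59216272 to 59262871 and P2ry13 spans 59207892 to 59210882 on GRCm38. Med12l averaged 41.2 ± 1.87 CPM in the libraries labelled KO and 46.4 ± 4.63 CPM in those labelled WT (SD, n = 4 each), at a log2 fold change of -0.17 (SE 0.07, adjusted p = 0.276, edgeR). Whether the counting used strand is not stated, so it is not known whether reads of the receptors and of Med12l were kept apart. Only the spans of the genes were compared, not their exons. The part of Med12l in the P2ry12 difference was not tested.

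Csf1r, the receptor for colony-stimulating factor 1 and interleukin 34, had the highest CPM of the list, at 86.4, 93.1, 90.6 and 95.2 CPM in the libraries labelled KO and 90.3, 100.5, 103 and 100.2 CPM in those labelled WT. The groups overlapped through replicate 1 labelled WT, with a log2 fold change of -0.11 (SE 0.05, adjusted p = 0.343, edgeR). At its end, from 61131277 to 61132149 on chromosome 18, Csf1r overlaps Hmgxb3 on the opposite strand. Hmgxb3 averaged 56.6 ± 2.66 CPM in the libraries labelled KO and 50.2 ± 2.53 CPM in those labelled WT (SD, n = 4 each). Cx3cr1 and Gpr34 also overlap other genes, Gpr34 on the opposite strand and Cx3cr1 on both strands. Whether their reads were kept apart is not known either. Cx3cr1, the fractalkine receptor, stood at 52.6, 46.8, 42.0 and 44.6 CPM in the libraries labelled KO and at 50.4, 51.7, 49.7 and 46.1 CPM in those labelled WT. Replicate 1 labelled KO was the highest of the 8 and replicate 3 labelled KO the lowest, so the spread within that group exceeded the difference between the groups. Tmem119, a microglial membrane protein, was level, at 21.7, 21.1, 20.4 and 21.7 CPM in the libraries labelled KO and 22.0, 23.3, 20.8 and 18.7 CPM in those labelled WT. Its log2 fold change of 0.0002 (SE 0.07) turned below 0 under some other settings.

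The remaining homeostatic genes did not pass either. They were Gpr34, a receptor for lysophosphatidylserine, Fcrls, an Fc receptor-like protein, Olfml3, a secreted protein, Siglech, a sialic acid-binding lectin, and Selplg, a ligand of selectins, with log2 fold changes from -0.13 (SE 0.10) for Gpr34 to 0.08 (SE 0.06) for Selplg. Summed over the 10 genes, the level ran from 283 to 291 CPM in the libraries labelled KO and from 297 to 322 CPM in those labelled WT. The groups of sums did not overlap. Without Csf1r they did, at 193 to 205 CPM in the libraries labelled KO and 197 to 221 CPM in those labelled WT. Leaving out any other gene of the 10 kept the groups apart. Markers of other brain cells also differed in level. The neuron markers had log2 fold changes above 0 in 6 of 6 cases, with a median of 0.07, and summed to between 5562 and 6131 CPM in the libraries labelled KO and between 5445 and 5871 CPM in those labelled WT. The astrocyte markers had log2 fold changes below 0 in 4 of 6 cases, with a median of -0.07, and summed to between 2600 and 2954 CPM in the libraries labelled KO and between 2807 and 2929 CPM in those labelled WT. Among them Slc1a3, a glutamate transporter, averaged 716 ± 20.6 CPM in the libraries labelled KO and 782 ± 17.0 CPM in those labelled WT (SD, n = 4 each), with no overlap between the groups and an adjusted p of 0.088 (edgeR). Their part in the homeostatic sums was not tested.

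**Figure D4:**
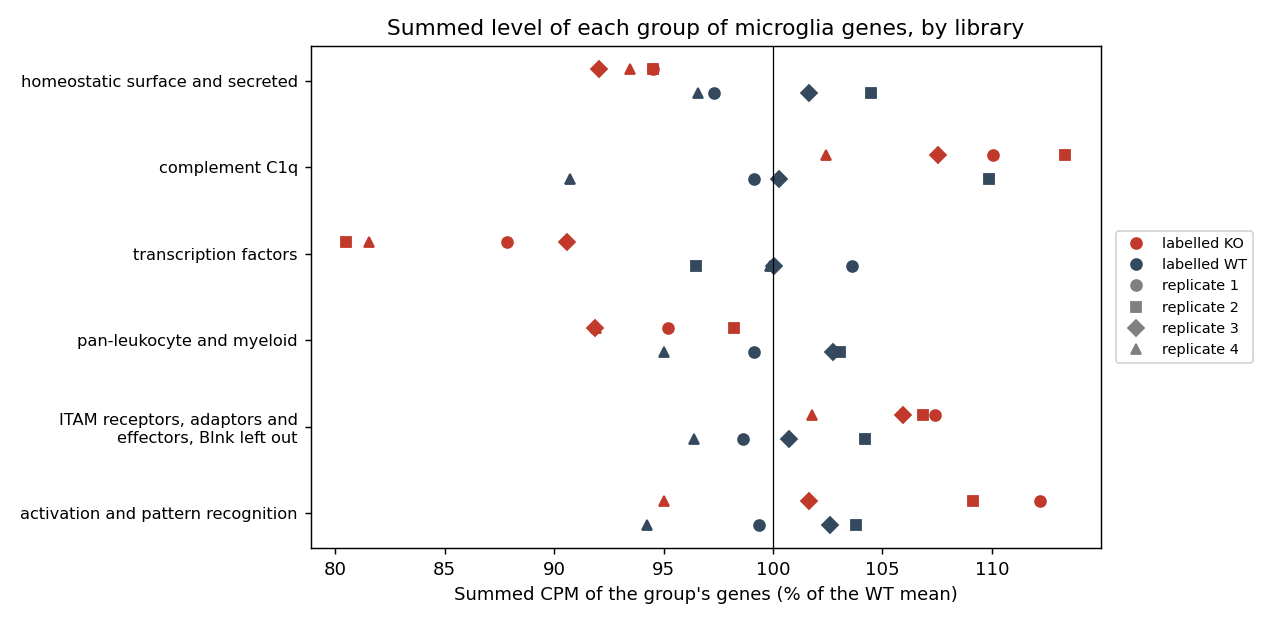
Summed CPM of each group of microglia genes in each library, as a percent of the mean of the 4 libraries labelled WT, with Blnk left out of the ITAM group. Sums of the homeostatic genes and of the 2 transcription factors lie lower in all 4 libraries labelled KO than in any labelled WT, and the groups overlap for the other rows.

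The 2 transcription factors of microglial identity stood lower on average in the libraries labelled KO, and neither passed. Irf8, an interferon regulatory factor, was measured at 5.52, 5.22, 5.23 and 5.28 CPM in the libraries labelled KO and at 6.64, 5.70, 6.19 and 6.09 CPM in those labelled WT. The groups did not overlap, at a log2 fold change of -0.21 (SE 0.11, adjusted p = 0.453, edgeR). Spi1, which encodes PU.1, was measured at 2.68, 2.29, 3.22 and 2.34 CPM in the libraries labelled KO and at 3.03, 3.31, 3.15 and 3.24 CPM in those labelled WT. Replicate 3 labelled KO lay within the range labelled WT, with a log2 fold change of -0.26 (SE 0.16, adjusted p = 0.522, edgeR). Irf8 shares its position with the long gene model Gm20388 on the same strand, which averaged 56.0 ± 3.24 CPM in the libraries labelled KO and 50.1 ± 4.76 CPM in those labelled WT (SD, n = 4 each), so reads of the pair may have been split.

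Of the 36 genes, 3 (P2ry12, Irf8 and Itgam) were lower in every library labelled KO than in any labelled WT, which is 8.33% against 3.4% of all tested genes. Blnk alone of the 36 (2.78%) was higher in every one, against 4.28% of all tested genes, and 7.67% of all tested genes had groups apart in either direction. Itgam, the integrin subunit CD11b, was measured at 22.4, 24.2, 25.2 and 24.8 CPM in the libraries labelled KO and at 25.4, 28.9, 30.0 and 26.7 CPM in those labelled WT. The highest library labelled KO and the lowest labelled WT nearly touched. This gave a log2 fold change of -0.20 (SE 0.07, adjusted p = 0.177, edgeR).

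The other genes shared with macrophages and leukocytes had log2 fold changes from -0.12 to 0.02, and 0 passed (edgeR). Aif1, which encodes the actin-binding protein IBA1, was measured at 4.55, 4.97, 4.18 and 4.61 CPM in the libraries labelled KO and at 3.95, 5.51, 4.25 and 4.47 CPM in those labelled WT. The range labelled KO lay within that labelled WT, and the sign of its log2 fold change of -0.0001 (SE 0.13) turned under other settings. Ctss, a lysosomal protease, averaged 73.4 ± 3.67 CPM in the libraries labelled KO and 76.5 ± 1.57 CPM in those labelled WT (SD, n = 4 each). Laptm5, a lysosomal membrane protein of leukocytes, averaged 30.7 ± 2.23 CPM in the libraries labelled KO and 32.7 ± 2.30 CPM in those labelled WT. Ptprc, the leukocyte phosphatase CD45, averaged 4.46 ± 0.96 CPM in the libraries labelled KO and 4.84 ± 1.03 CPM in those labelled WT, with replicate 1 the highest of its group in both.

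The 3 chains of C1q, which starts the classical complement pathway, had log2 fold changes above 0, and 0 of 3 passed (edgeR). C1qb was measured at 47.6, 47.4, 46.8 and 43.1 CPM in the libraries labelled KO and at 39.4, 45.8, 42.3 and 37.8 CPM in those labelled WT. Replicate 2 labelled WT lay above replicate 4 labelled KO, with a log2 fold change of 0.16 (SE 0.06, adjusted p = 0.273, edgeR). C1qa averaged 46.2 ± 1.43 CPM in the libraries labelled KO and 43.0 ± 2.71 CPM in those labelled WT, and C1qc 39.0 ± 2.48 CPM in the libraries labelled KO and 37.0 ± 3.75 CPM in those labelled WT (SD, n = 4 each). The 3 genes lie side by side on chromosome 4, between 136880129 and 136898803. C1qa made up 34.7% to 35.7% of their summed CPM in the libraries labelled KO and 34.1% to 36.6% in those labelled WT.

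Genes that mark activated microglia or sense microbial products had log2 fold changes above 0 in 5 of 6 cases, with a median of 0.13, and 0 passed (edgeR). Tlr2, a receptor for bacterial lipoproteins, was measured at 3.06, 2.68, 2.43 and 2.87 CPM in the libraries labelled KO and at 2.19, 1.23, 2.25 and 2.59 CPM in those labelled WT. Replicate 2 labelled WT was the lowest and replicate 4 labelled WT lay within the other group, with a log2 fold change of 0.41 (SE 0.20, adjusted p = 0.408, edgeR). It was 0.22 without WT replicate 2 and 0.54 without WT replicate 4, with an adjusted p between 0.287 and 0.692 over 14 alternatives. Cd68, a lysosomal glycoprotein, was measured at 8.28, 8.22, 7.82 and 7.48 CPM in the libraries labelled KO and at 5.63, 7.97, 6.89 and 7.06 CPM in those labelled WT. The groups overlapped through replicate 2 labelled WT, at a log2 fold change of 0.19 (SE 0.11, adjusted p = 0.4995, edgeR).

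Cd14, a co-receptor for lipopolysaccharide, averaged 2.77 ± 0.38 CPM in the libraries labelled KO and 2.43 ± 0.55 CPM in those labelled WT (SD, n = 4 each). The co-stimulatory gene Cd86 averaged 2.60 ± 0.50 CPM in the libraries labelled KO and 2.41 ± 0.35 CPM in those labelled WT. For both genes the groups overlapped. Lyz2, the macrophage lysozyme, which has a near-identical copy in Lyz1, averaged 11.5 ± 1.95 CPM in the libraries labelled KO and 11.1 ± 1.45 CPM in those labelled WT. Unc93b1, which carries nucleic acid-sensing Toll-like receptors to endosomes, was the member of this group below 0, at a log2 fold change of -0.10 (SE 0.09).

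Set side by side, the summed CPM of the 6 activation genes came to 15.5%, 15.1%, 14.4% and 13.3% of that of the 10 homeostatic genes in the libraries labelled KO, and to 13.3%, 12.98%, 13.2% and 12.7% in those labelled WT. The libraries labelled KO stood higher but for replicate 4, which lay just under the highest library labelled WT. The sums alone ran from 38.2 to 45.1 CPM in the libraries labelled KO and from 37.9 to 41.7 CPM in those labelled WT for the activation genes. Replicates 1 and 2 labelled KO held the highest sums. These sums were weighted by the most abundant genes and were not tested.

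Levels were also read per kb of exon, over all bases that any annotated transcript of a gene counts as exon. This length can exceed that of the transcript present, so the order of genes depends on it. It was 18313 bases for Ptprc, 4946 for Trem2 and 667 for Tyrobp. On this measure Ctss, C1qa and C1qb had the highest mean levels. These were 54.1, 44.5 and 42.5 CPM per kb in the libraries labelled KO and 56.3, 41.4 and 38.0 in those labelled WT. C1qc followed, at 20.2 CPM per kb in the libraries labelled KO and 19.2 CPM per kb in those labelled WT. Tyrobp came next, at 18.9 CPM per kb in the libraries labelled KO and 19.0 CPM per kb in those labelled WT, above its receptor Trem2, at 3.03 CPM per kb in the libraries labelled KO and 2.96 CPM per kb in those labelled WT. Ptprc, Btk and Syk were lowest, at 0.243, 0.435 and 0.532 CPM per kb in the libraries labelled KO. Blnk stood at 1.77 CPM per kb in the libraries labelled KO and at 0.799 CPM per kb in those labelled WT, where its mean lay between those of Irf8 (0.873) and Tlr2 (0.684).

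**Figure D5:**
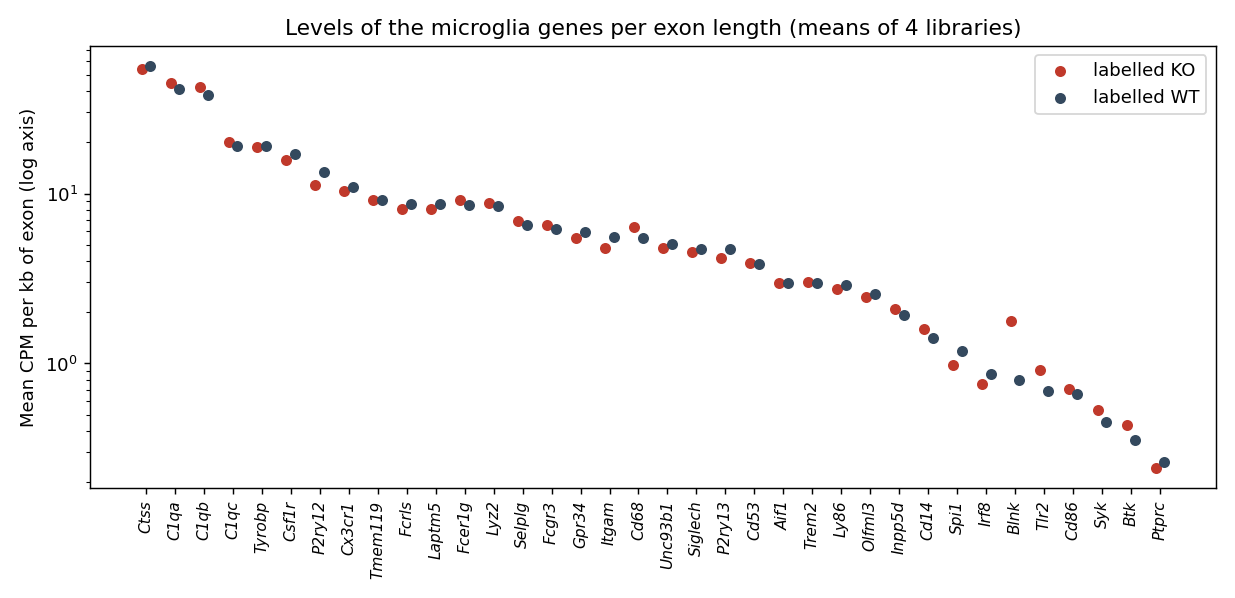
Mean CPM per kb of exon of the 36 genes on a log axis, in the libraries labelled KO and labelled WT (means of 4 libraries), in the order of the level labelled WT. Most pairs of points lie close together, and the widest gap is that of Blnk, at 1.77 and 0.799 CPM per kb.

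Genes of disease-associated microglia, a state with raised phagocytic and lipid genes, were read from a separate list of 20, of which 18 were tested. Of these 1 rose, 0 fell and 17 did not pass, with a median log2 fold change of 0.019. Among all tested genes 1.14% rose and 0.289% fell. In 3 of the 18 every library labelled KO lay above every library labelled WT, against 4.28% of all tested genes. In 0 of the 18 they lay below, against 3.4%. The gene that rose was Gpnmb, a transmembrane glycoprotein of lysosome-rich macrophages that other brain cells can also express. It stood at 8.05, 5.86, 7.82 and 6.14 CPM in the libraries labelled KO, against 4.96, 4.84, 4.196 and 3.497 CPM in those labelled WT, with no overlap between the groups. This gave a log2 fold change of 0.68 (SE 0.14, adjusted p = 0.017, edgeR), a fold of 1.603. It did not pass once KO replicate 1 was left out (adjusted p = 0.051), nor without KO replicate 3 (0.0931), WT replicate 3 (0.0757) or WT replicate 4 (0.0564, all edgeR), within a range of 0.0052 to 0.0931 over 14 alternatives.

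Among the other genes of that list, Apoe, a lipid carrier made mostly by astrocytes, averaged 1410 ± 65.7 CPM in the libraries labelled KO and 1386 ± 90.2 CPM in those labelled WT (SD, n = 4 each). Spp1, the secreted protein osteopontin, averaged 50.9 ± 3.46 CPM in the libraries labelled KO and 45.3 ± 1.30 CPM in those labelled WT, with no overlap between the groups and an adjusted p of 0.194 (edgeR). Ctsb averaged 714 ± 9.13 CPM in the libraries labelled KO and 685 ± 13.2 CPM in those labelled WT. Its groups did not overlap either, at an adjusted p of 0.484 (edgeR). Axl, a receptor for dying cells, averaged 63.7 ± 1.14 CPM in the libraries labelled KO and 67.3 ± 4.11 CPM in those labelled WT. Clec7a, a defining gene of that state, was low, at 0.951 ± 0.140 CPM in the libraries labelled KO and 1.17 ± 0.0847 CPM in those labelled WT.

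Of 14 inflammatory cytokines and mediators, 5 were in the table and 4 were tested, and 0 passed (edgeR), with 1 at an unadjusted p under 0.05. That gene was Ptgs2, a prostaglandin synthase also induced in firing neurons, at 27.4, 14.1, 16.1 and 18.03 CPM in the libraries labelled KO and 12.7, 10.4, 9.74 and 11.6 CPM in those labelled WT. The groups did not overlap and replicate 1 labelled KO stood far above the rest, at a log2 fold change of 0.77 (SE 0.21, adjusted p = 0.17). Il1a averaged 0.840 ± 0.284 CPM in the libraries labelled KO and 0.933 ± 0.285 CPM in those labelled WT, and Il1b, Tnf and Il6 were not analysed here.

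The 6 ligands that act on microglia held 0 that passed (edgeR), with 2 at an unadjusted p under 0.05. Cx3cl1, the neuronal ligand of CX3CR1, averaged 523 ± 28.1 CPM in the libraries labelled KO and 484 ± 21.2 CPM in those labelled WT (SD, n = 4 each), at an adjusted p of 0.274. Csf1 averaged 27.1 ± 3.003 CPM in the libraries labelled KO and 30.5 ± 3.06 CPM in those labelled WT, and Il34, the other ligand of CSF1R, 36.2 ± 3.92 CPM in the libraries labelled KO and 33.9 ± 1.96 CPM in those labelled WT.

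Markers of the neighbouring immune cells and of blood were read as well. Genes of border-associated macrophages (8 of 10 in the table, 6 tested) summed to between 30.8 and 39.5 CPM in the libraries labelled KO and between 33.8 and 36.2 CPM in those labelled WT, and 0 passed (edgeR; 0 at an unadjusted p under 0.05). Their mannose receptor Mrc1 averaged 6.16 ± 0.57 CPM in the libraries labelled KO and 5.70 ± 0.86 CPM in those labelled WT (SD, n = 4 each). Most of the sum came from Stab1, at 20.6 ± 2.47 CPM labelled KO and 20.3 ± 0.69 CPM labelled WT. Of the 6 tested, 4 had log2 fold changes above 0 and 2 below. The monocyte and neutrophil genes in the table, S100a8 and S100a9 of 10 listed, summed to between 1.14 and 2.39 CPM in the libraries labelled KO and between 0.971 and 4.96 CPM in those labelled WT. Genes of red blood cells summed to between 50.2 and 81.1 CPM in the libraries labelled KO and between 49.7 and 74.1 CPM in those labelled WT.

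In the whole list, leaving out any 1 library left Blnk as the only gene past the threshold. The median log2 fold change of the other 35 then ran from -0.036 without WT replicate 4 to 0.051 without WT replicate 2.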

How the data were processed

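RNA was extracted from brain and polyadenylated RNA was sequenced after a strand-marking library kit, per the labels' protocols. The authors deposited expected counts (estimated read counts per gene), of which 91.5% were whole within 0.001. TopHat2 2.0.9 and edgeR are named, with no role, alongside the GRCm38 build, per the submitters' processing notes. The counting program and its strand setting were not stated.

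Counts were rounded, filtered by filterByExpr and scaled by TMM. Groups were then compared in edgeR 4.0.16 under R 4.3.3 with its robust quasi-likelihood F-test, adjusted over 15902 genes at 0.05. Fold changes are KO over WT, and each SE is the log2 fold change divided by the root of its F. DESeq2 1.42.0 and limma 3.58.1 (voom) were alternatives. The scripts were tested on simulated data. Replicates showed more than counting noise between them (chi-square per degree of freedom 2.55 to 5.231), so all 8 libraries were kept.

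Positions and exon lengths come from GENCODE M21 and promoter windows from RefSeq. The genes and lists were chosen with earlier results of these data known. By rule, values per library are given for Blnk, for genes past the threshold and for the lowest p of each role group. The same holds for Cx3cr1, P2ry12, Aif1, Tmem119, Csf1r, Cd68 and Trem2, and outside the list for Uhrf2 and called genes of the other lists. The genes nearest to Blnk were also named by rule and are given as means with SD. Any other gene was named after its values were seen.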

Additional observations from a re-analysis of the deposited data

Results flagged for a closer look

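In 72 groups of 4 libraries (36 genes, 2 groups each), 5 held a library far from the other 3. Chance flags about 1 in 20 such groups. Ptprc stood at 5.89 CPM in KO replicate 1, against 3.91 to 4.01 CPM in the other libraries labelled KO. Cd53 stood at 5.61 CPM in KO replicate 4, against 7.19 to 7.26 CPM in the others. C1qb stood at 43.1 CPM in KO replicate 4, against 46.8 to 47.6 CPM. Olfml3 stood at 17.8 CPM in WT replicate 2, against 15 to 15.4 CPM in the other libraries labelled WT. Ctss stood at 74.1 CPM in WT replicate 4, against 77.1 to 77.5 CPM.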

How the results depend on the processing

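Blnk passed the threshold in all 14 alternatives, at log2 fold changes of 1.07 to 1.29, and Uhrf2 did so at 0.61 to 0.71. The number of changed genes, 228 with all libraries, was lowest at 110 when WT replicate 3 was left out and highest at 324 when KO replicate 2 was, with 130 without KO replicate 3 and 146 without KO replicate 4. By DESeq2 it was 311 and by limma-voom 203. Same-numbered libraries correlated in their deviations at 0.208, 0.0772, 0.0245 and 0.0673 for replicates 1 to 4. Not every library correlated best with its own number, so whether the replicate numbers pair the libraries was not settled. With the replicate number as a block, 495 genes changed and 2 of the 36 did, Blnk and P2ry12 (log2 fold change -0.26, adjusted p = 0.0219, edgeR, against 0.0564 to 0.263 under the other settings). For the remaining 34 genes the block changed no call.

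Of 489 values for the other 35 genes, 465 kept sign and side and 23, of 8 genes, turned sign. Aif1 (-0.0001) turned to 0.00030 with median-ratio factors, 0.00031 with no filter, 0.0021 by DESeq2, 0.0047 by limma-voom and 0.0036 with the block, and Tmem119 turned to -9.7e-05 with a filter of more than 1 CPM in 4 libraries. Without 1 library, the ranges were -0.055 to 0.051 for Tmem119, -0.047 to 0.11 for Aif1, -0.019 to 0.11 for Cd53, -0.036 to 0.15 for Lyz2, -0.036 to 0.034 for Tyrobp, -0.021 to 0.21 for Cd86, -0.26 to 0.017 for Ptprc and -0.093 to 0.0046 for Olfml3. The cause was not tested. Gpnmb was put through the same alternatives after its value was seen. The median of the other 35 genes moved to 0.051 without WT replicate 2. Btk, Tlr2, Cd14 and Cd86 had the widest standard errors of the list, on 12 to 64 counts a library.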
